A study of Mus musculus with 12 samples.

Results

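Transcript-rich nuclei are here the nuclei of P21 mouse cortex, barcoded by split-and-pool single-nucleus RNA sequencing, that held 6001 to 12000 unique molecular identifiers (UMIs, each counting 1 captured transcript), at most 1% of them from mitochondrially encoded (mt-) genes. They lie just above the 6000 UMI limit of the study's own quality control. They were chosen by their UMI total, after the same mitochondrial limit had been set for all ranges. Their UMI totals, their unadjusted gene numbers and everything that follows directly from depth are therefore given below as descriptions with no test. These nuclei were compared, within each animal, with standard nuclei, the barcodes of 1500 to 6000 UMIs. Of 78743 barcodes, 21 exceeded the mitochondrial limit and 26796 (34.0%) were transcript-rich, 45118 (57.3%) were standard and 6808 (8.65%) held more than 12000 UMIs. No barcode was shared between libraries.

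The nuclei came from 12 C57BL/6J-background mice, 6 wild-type (WT) and 6 heterozygous (Het) for the Myt1l S710fsX frameshift allele, with 3 males and 3 females of each genotype. MYT1L is a zinc finger transcription factor of postmitotic neurons. Every animal, WT included, had received AAV9 vectors carrying the hyPB transposase and an H2b-tdTomato reporter transposon in the ventricles at birth, was perfused at P21 and gave 1 library from frozen dissected cortex, and all libraries of this age were prepared on the same plates. The Het animals are of 1 line, and litter was not given per animal, so the libraries are 12 animals without a known litter structure.

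A nucleus yields more transcripts when it is larger, more transcriptionally active or better captured, and a barcode that holds a pair of nuclei also yields more. Projection neurons of the cortex have large, transcript-rich nuclei, whereas nuclei of oligodendrocytes, microglia and many interneurons are small. Nuclear RNA is mostly unspliced, so long genes with long introns, many of them synaptic adhesion molecules and ion channels, take a large share of it.

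Each library contributed between 1131 and 3359 transcript-rich nuclei, which were 23.8% to 39.2% of an animal's nuclei. WT male 1, the animal with 1131, was also the library with the fewest barcodes, 4059. Total UMIs per library ranged from 23429386 to 59958572. The smallest barcode of a library held between 1502 and 2182 UMIs, so the lower edge of the standard range differed between animals. The median transcript-rich nucleus held 7993 UMIs and 2804 genes, against 3634 UMIs and 1734 genes for standard nuclei, and the transcript-rich nuclei together held 44.3% of all UMIs. Of them, 8694 (32.4%) had more than 3000 genes, and 26054 (97.2%) had log(genes)/log(UMIs) below 0.9, a limit that 22.7% of standard nuclei also missed.

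The 4213 nuclei with over 5500 to 6000 UMIs and the 3902 nuclei with over 6000 to 6500 UMIs had median UMIs of 5742 and 6244. After every nucleus was thinned to 1500 UMIs, they showed medians of 880 and 879 genes, 31.8% and 31.9% excitatory-like nuclei and 7.19% and 6.15% inhibitory-like nuclei, 0.902% and 0.589% oligodendrocyte-like nuclei, and 79.0% and 81.9% excitatory nuclei by whole profile.

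To compare cell classes free of depth, UMIs of each nucleus were thinned to 1500, and a nucleus took the class whose marker list held at least 2 UMIs and at least 3 times the UMIs of the next list. This rule left 55.5% of standard and 58.4% of transcript-rich nuclei without a class. Class shares are percentages of all nuclei of a UMI range in an animal, given as mean ± SD (n = 12 animals), and were tested by an exact two-sided sign-flip permutation test of the within-animal difference with Benjamini-Hochberg adjustment over 8 class tests. The smallest p that 12 animals allow is 0.000488.

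Excitatory-like nuclei, called from the vesicular glutamate transporters Slc17a7 and Slc17a6, the synaptic vesicle gene Sv2b and transcription factors such as Neurod2, Neurod6 and Tbr1, took a larger share of the transcript-rich nuclei in every animal. Their share in standard nuclei was lowest at 24.8%, had a median of 27.1% and was highest at 31.1%, and in transcript-rich nuclei these values were 31.8%, 34.5% and 37.9%. The 12 animals did not overlap between the ranges, and the mean rose from 27.2% ± 1.88 to 34.4% ± 1.95, a difference of 7.16 ± 1.91 percentage points (exact p = 0.000488, adjusted p = 0.000781). Of the excitatory-like nuclei 49.6% of the standard and 51.8% of the transcript-rich ones held exactly the 2 marker UMIs the rule asks for. With 4 UMIs asked for, the shares were 6.65% and 7.96%, a difference of 1.3 points that was positive in 11 of 12 animals, with overlap.

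Inhibitory-like nuclei, called from the GABA synthesis genes Gad1 and Gad2, the GABA vesicle transporter Slc32a1 and the Dlx genes, moved the other way. Their share was 6.75%, 8.16% and 12.4% (lowest, median, highest) in standard nuclei and 3.02%, 4.80% and 5.43% in transcript-rich nuclei. It was lower in all 12 animals with no overlap, by -4.17 ± 1.57 percentage points (exact p = 0.000488, adjusted p = 0.000781). Of these nuclei 45.6% of the standard and 48.6% of the transcript-rich ones lay exactly at the class cut. With 4 UMIs asked for, the shares were 2.99% and 1.37%, lower in 12 of 12 animals by -1.61 points, with overlap.

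Nuclei with the marker lists of non-neuronal cells were scarcer above the limit. Summed over lists they were 8.55% ± 2.65 of standard and 2.69% ± 0.438 of transcript-rich nuclei, lower in all 12 animals with no overlap (exact p = 0.000488). Oligodendrocyte-like nuclei, with myelin genes such as Mog, Mag and Mobp, had shares of 2.08%, 5.02% and 7.62% in standard nuclei and of 0.442%, 0.726% and 1.42% in transcript-rich nuclei. OPC-like nuclei, with the growth factor receptor gene Pdgfra and the proteoglycan genes Cspg4 and Vcan, fell from a mean of 0.934% to 0.0514%. Both were lower in every animal with no overlap. With every nucleus thinned to 3000 UMIs, which left out the 15199 standard nuclei below that depth and so changed the standard group, oligodendrocyte-like nuclei were 2.84% and 0.762% and OPC-like nuclei 0.201% and 0.0718%. There the ranges overlapped, and the shares were lower in 12 and 11 of 12 animals.

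The other marker classes overlapped between the UMI ranges. Astrocyte-like nuclei were 1.88% of standard and 1.49% of transcript-rich nuclei, lower in 11 of 12 animals (exact p = 0.00146, adjusted p = 0.00195), and without the long noncoding gene Rmst in the list these shares were 0.570% and 0.119%. Microglia-like nuclei were 0.594% and 0.352%, lower in 10 animals (exact p = 0.00244, adjusted p = 0.00279). Vascular and leptomeningeal-like nuclei were 0.143% and 0.0265%, lower in 11 animals (exact p = 0.00293). In the same run at 3000 UMIs these 3 calls were lost, with astrocyte-like shares of 1.79% and 1.69% (exact p = 0.204) and adjusted exact p of 0.0527 for microglia-like and 0.0938 for vascular and leptomeningeal-like nuclei. Over these nuclei the summed non-neuronal difference was -2.48 points, with overlap, in place of -5.86, and still lower in 12 of 12 animals.

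**Figure D1:**
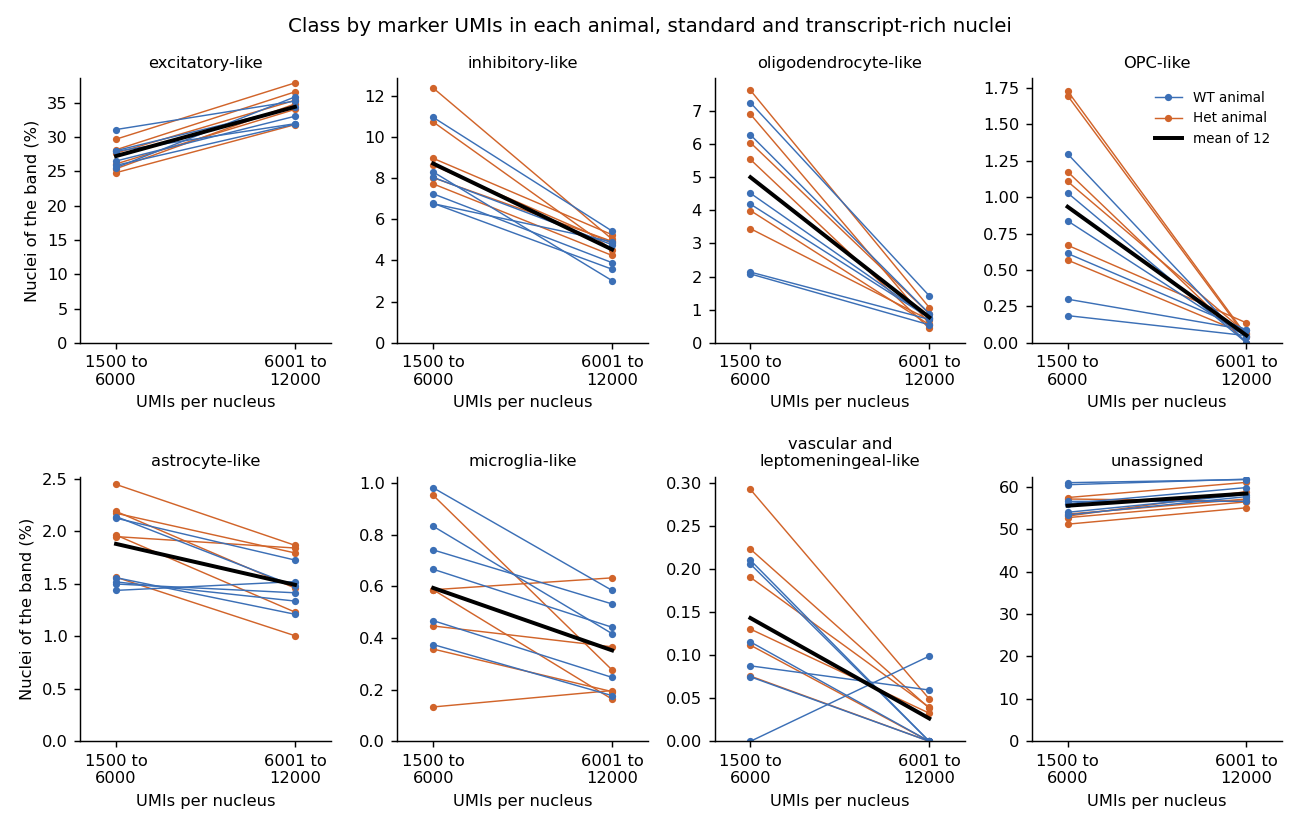
Share of nuclei (%, y axis) in each marker class for standard (1500 to 6000 UMIs) and transcript-rich (6001 to 12000 UMIs) nuclei; each line joins the values of 1 of the 12 animals, coloured by genotype, and every panel starts at 0. Excitatory-like lines all rise, from a mean of 27.2% to 34.4%, and inhibitory-like and oligodendrocyte-like lines all fall.

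Because most nuclei had no marker class, each thinned nucleus was also assigned to the class whose average expression profile over all genes gave its UMIs the highest likelihood, an assignment added after the data were seen. The profiles were those of the standard nuclei that the marker rule, without Rmst in its astrocyte list, had classed. Every nucleus received a class in this way. Excitatory nuclei were then 68.8% ± 4.26 of standard and 86.1% ± 2.10 of transcript-rich nuclei, with ranges of 63.9% to 75.9% and 83% to 89.9%, a difference of 17.3 percentage points (exact p = 0.000488). Inhibitory nuclei went from 22.5% to 13.2% and non-neuronal nuclei from 8.65% to 0.659%, each lower in all 12 animals.

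Above the limit the marker names of neurons mostly matched the whole profile and those of glia mostly did not. The profiles came from standard nuclei classed by the marker rule, so the match is not an independent check of the names. Among transcript-rich nuclei, 9206 of 9242 excitatory-like nuclei (99.6%) and 1174 of 1212 inhibitory-like nuclei (96.9%) had the same class by whole profile. Only 28 of 206 oligodendrocyte-like nuclei (13.6%), 7 of 402 astrocyte-like nuclei (1.74%), 41 of 93 microglia-like nuclei (44.1%) and 0 of 14 OPC-like nuclei did. In standard nuclei, 88.5% of oligodendrocyte-like, 96.4% of OPC-like and 69.3% of microglia-like nuclei kept their class, while 22.4% of astrocyte-like nuclei did. The profiles had been built from such standard nuclei, so the 2 ranges are not compared on equal terms.

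The marker levels of these nuclei differed accordingly. In oligodendrocyte-like nuclei Mobp stood at 4022 CPM (UMIs of the gene per 1000000 UMIs) below the limit and at 1094 above it. The excitatory gene Sv2b stood at 41.4 and 280 CPM in the same nuclei, and Gad1 at 13.5 and 66.2 CPM. In astrocyte-like nuclei the glutamate transporter gene Slc1a3 stood at 581 and 72.5 CPM, while Rmst stood at 1475 and 1298 CPM. Transcript-rich nuclei with a glial marker class are therefore named here by the marker rule only, and no gene comparison of them is given.

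The shares differed along the UMI scale both below and above the limit. By whole profile, the mean excitatory share was 57.9% at 1500 to 3000 UMIs, 71.3% at 3001 to 4500 and 78.3% at 4501 to 6000. Above the limit it was 83.8% at 6001 to 8000, 87.4% at 8001 to 10000 and 90.0% at 10001 to 12000. Marker-based oligodendrocyte-like nuclei were 9.86%, 3.81% and 1.21% of the bins below the limit and 0.694%, 0.757% and 1.02% of the bins above it. Inhibitory-like nuclei were 9.07%, 8.97% and 7.65% of the bins below the limit and 5.43%, 4.00% and 3.05% of the bins above it.

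**Figure D2:**
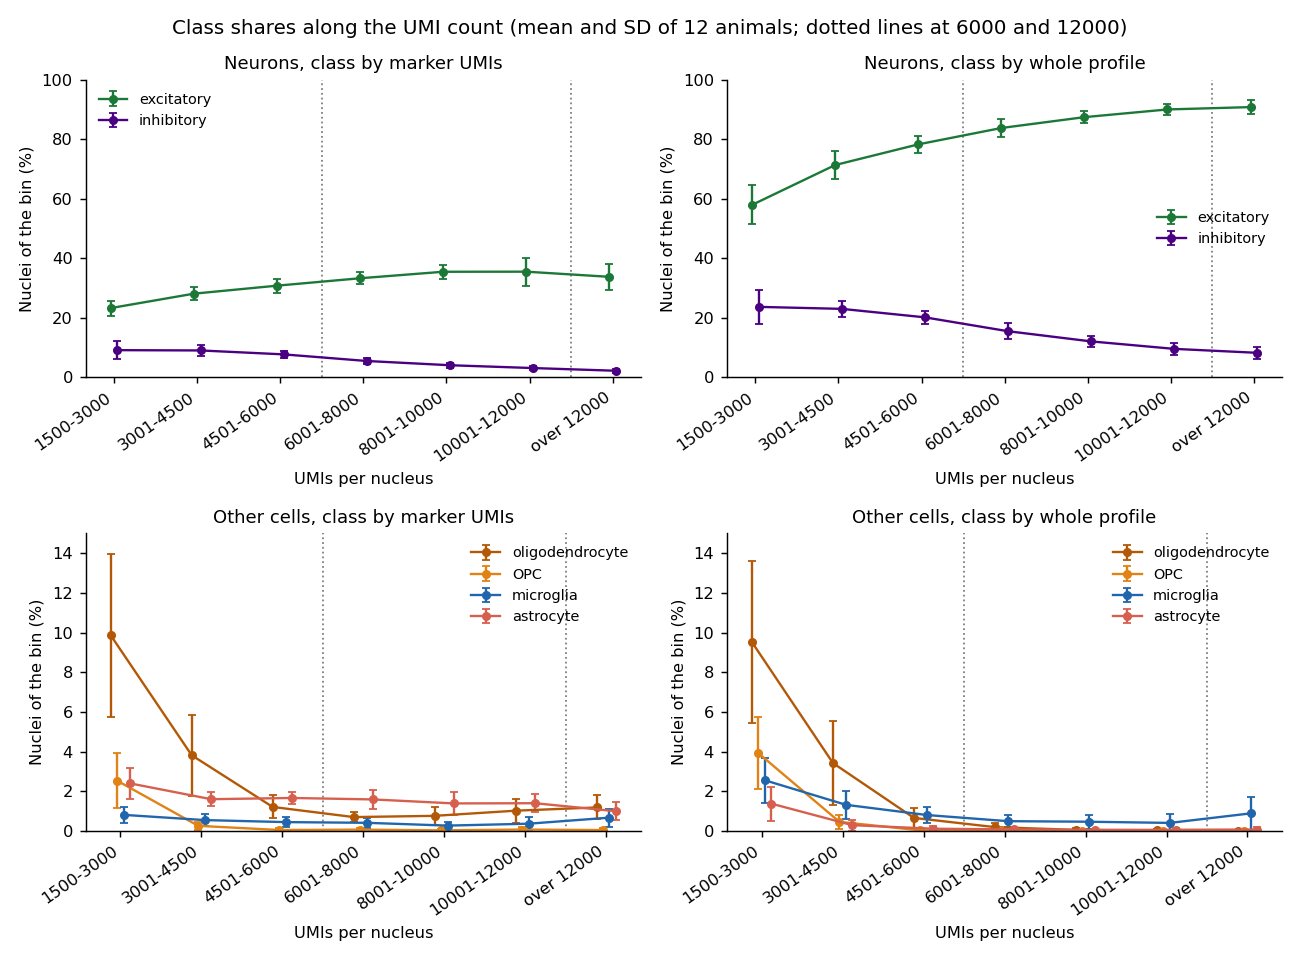
Class shares (%, y axis) in 7 bins of UMIs per nucleus (x axis), by marker UMIs and by whole profile; points are means and bars SDs over 12 animals, and dotted lines stand at 6000 and 12000 UMIs. The excitatory share by whole profile climbs from 57.9% in the lowest bin to 90.0% at 10001 to 12000 UMIs.

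The sign of a doublet set for these nuclei was the joint presence of at least 2 UMIs of Slc17a7 and at least 2 UMIs of Gad1 and Gad2 summed, a pair that a single cortical neuron would rarely express. At 1500 UMIs it was met by 0 of 26796 transcript-rich nuclei, which allows a share of up to 0.0112%, and by 0 of 45118 standard nuclei, which allows up to 0.00665%. These limits cover counting error only, and the sign was not detectable at this depth in either range.

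With at least 1 UMI of each, the sign was rarer in transcript-rich than in standard nuclei. It was met by 127 standard nuclei, 0.281% (Wilson 95% interval 0.237% to 0.335%, for counting error of pooled nuclei only, not the spread between animals). Among transcript-rich nuclei it was met by 0.149%. Over animals it was 0.0823%, 0.239% and 0.899% (lowest, median, highest) in standard nuclei and 0.0417%, 0.115% and 0.366% in transcript-rich nuclei. It was lower in 10 of 12 animals, by -0.139 ± 0.232 percentage points (exact p = 0.0176), and by -0.0782 without WT male 1 (exact p = 0.0352). That call was lost with another random thinning (a difference of -0.0575, exact p = 0.209), and at 3000 UMIs, again without the 15199 standard nuclei below that depth, the difference was 0.0403 (exact p = 0.646).

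The genes of this sign were also seen, at a low level, in nuclei of the other neuron class. At 1500 UMIs, Slc17a7 was seen in 16.9% of standard and 14.3% of transcript-rich nuclei with an excitatory whole profile. It was also seen in 1.31% and 1.5% of nuclei with an inhibitory profile. Gad1 or Gad2 was seen in 57.5% and 54.9% of inhibitory nuclei and in 2.04% and 1.34% of excitatory nuclei.

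Without thinning, the sign with 2 UMIs of each was met by 13 standard nuclei (0.0288%), by 0.25% of transcript-rich nuclei and by 275 of the 6808 nuclei above 12000 UMIs (4.04%). More UMIs give more chances to meet it, so these shares carry no test, and the part of depth in them was not tested. Thinned to 1500 UMIs, at least 1 UMI of each was seen in 0.281% of standard, 0.149% of transcript-rich and 0.397% of nuclei above 12000 UMIs. Thinned to 3000 UMIs, without the standard nuclei below that depth, these pooled shares were 0.745%, 0.758% and 1.44%. Along the bins above the limit the mean unthinned share was 0.142%, 0.258% and 0.641%, then 4.35% above 12000 UMIs.

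A second sign was the Scrublet score, which compares each nucleus with simulated pairs of nuclei of the same animal. The 5% of nuclei with the highest score in each animal took in 1.78%, 2.73% and 3.5% (lowest, median, highest) of standard nuclei and 3.31%, 5.34% and 6.90% of transcript-rich nuclei. The share was higher above the limit in 12 of 12 animals, by 2.67 ± 0.86 percentage points, and the ranges overlapped. Above 12000 UMIs it was 18.9%. The score is computed on each nucleus' own depth, which chose these nuclei, so the shares carry no test, and the part of depth in them was not tested.

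At 1500 UMIs per nucleus, transcript-rich nuclei showed slightly fewer genes than standard nuclei. The animals' medians were 872, 888 and 909 genes in standard nuclei and 856, 871 and 892 in transcript-rich nuclei. Every animal was lower above the limit, by -15.2 ± 2.49 genes (exact p = 0.000488), although the animals overlapped. Within excitatory-like nuclei the difference was -13.6 ± 3.30 genes, again lower in 12 of 12 (exact p = 0.000488). Within inhibitory-like nuclei it was -6.83 ± 7.0 genes, lower in 11 (exact p = 0.00635), and -3.04 genes by whole profile (exact p = 0.0723).

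Genes longer than 100 kb took more of the UMIs above the limit. Their share of UMIs was 63.2%, 64.7% and 66.2% in standard nuclei and 65.8%, 67.3% and 68.1% in transcript-rich nuclei. It rose in all 12 animals, by 2.56 percentage points, and by 1.65 points in excitatory-like nuclei alone, from 65.8% to 67.5% (exact permutation test, both adjusted p = 0.000977 over 10 tests of gene groups).

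Shares of UMIs were also taken for 3 groups of genes of mitochondria and ribosomes. The mt- share had itself been limited to 1% of UMIs in both ranges, a limit that 21 of 78743 barcodes exceeded. UMIs of the 13 protein-coding mt- genes, encoded by the mitochondrial genome, were 0.00721% of standard and 0.00516% of transcript-rich UMIs, lower in all 12 animals (exact test, adjusted p = 0.000977). Within excitatory-like nuclei these shares were 0.00482% and 0.00437%, lower in 8 animals (adjusted p = 0.172 by the exact test). The mitochondrial ribosomal RNAs are not in that list. Of these, mt-Rnr2, which is more abundant than the whole list, stood at 59.6, 102 and 146 CPM (UMIs per 1000000, lowest, median and highest) in standard and at 39.7, 63.6 and 99.7 CPM in transcript-rich nuclei, lower in 12 of 12 animals with overlap (log2 fold change -0.50 ± 0.02, edgeR). Ribosomal protein genes, the parts of the translating machine, went from 0.0341% to 0.0308% in excitatory-like nuclei, lower in 11 of 12 (adjusted p = 0.00349 by the exact test). Nuclear-encoded respiratory chain genes went from 0.127% to 0.120% there, also lower in 11 (adjusted p = 0.00244 by the exact test). Gene by gene, the median log2 fold change of the 79 tested respiratory chain genes relative to total UMIs was -0.07 in excitatory-like nuclei, beside -0.08 over all genes.

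A list of 10 nuclear long noncoding RNAs, not the whole class of such genes, differed little in its summed share. These genes took 3.66% of standard and 3.69% of transcript-rich UMIs over all nuclei (exact test, adjusted p = 0.111). In excitatory-like nuclei they went from 3.80% to 3.74%, lower in 10 of 12 (adjusted p = 0.00488 by the exact test).

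**Figure D3:**
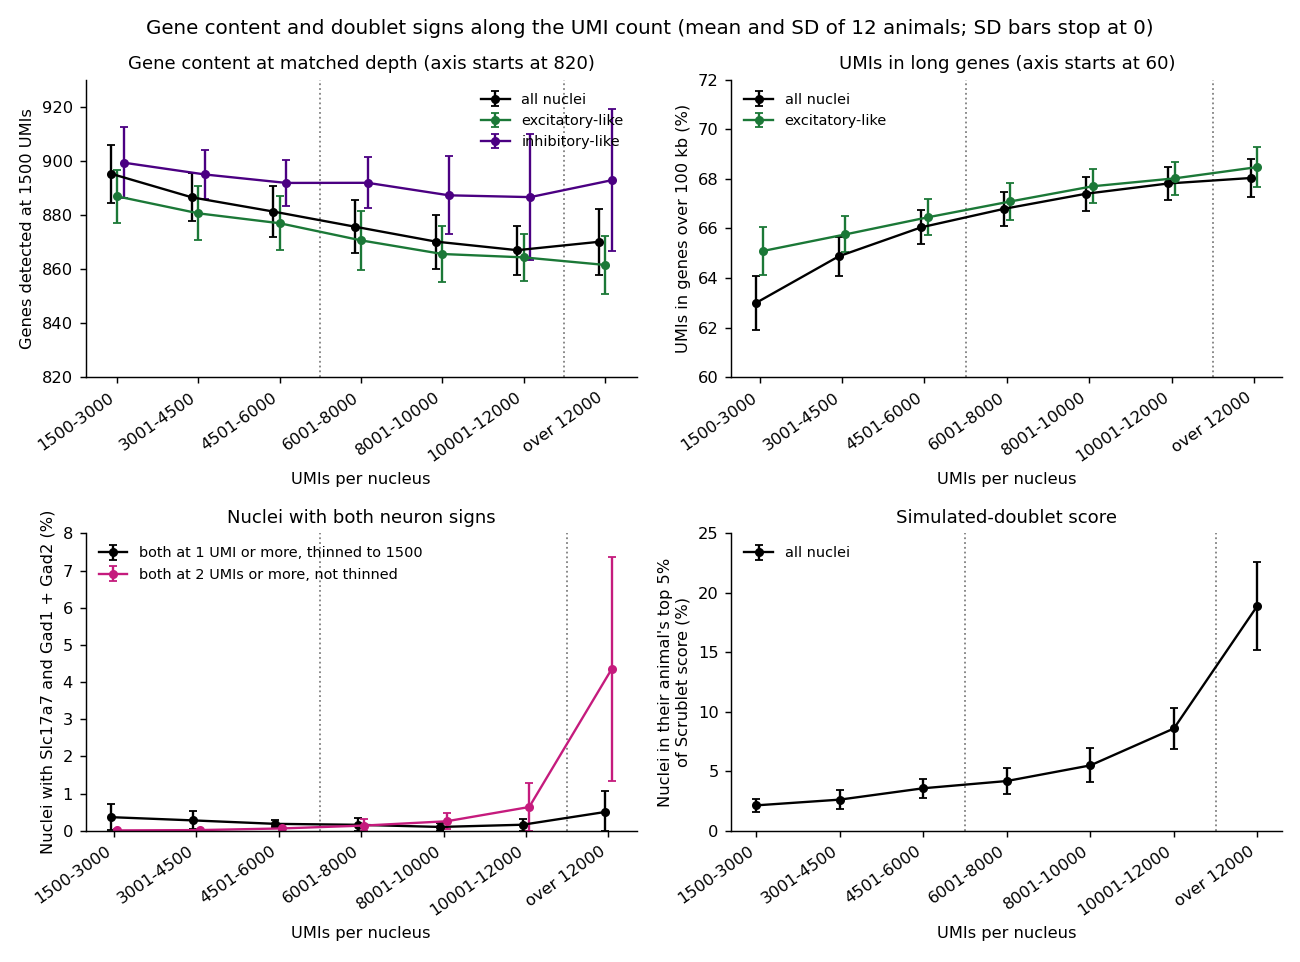
Gene content and doublet signs (y axes as labelled) against UMIs per nucleus (x axis), as means and SDs over 12 animals, with SD bars stopped at 0. Over all nuclei, genes per nucleus at 1500 UMIs fall from 895 in the lowest bin to 867 at 10001 to 12000 UMIs. The share of UMIs in genes over 100 kb climbs from 63.0% to 67.8% over the same bins. Above 12000 UMIs these values are 870 genes and 68.0%. The Scrublet and unthinned sign shares climb most steeply above 12000 UMIs.

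Gene levels were then compared with edgeR's quasi-likelihood test on UMIs summed per animal and UMI range, with the animal as a block. A gene is called at a Benjamini-Hochberg adjusted p under 0.05 with a log2 fold change (transcript-rich over standard) beyond 0.2 in either direction. Fold changes are relative to TMM scaling, under which the median gene differed by -0.01 over all nuclei. Relative to total UMIs the median gene differed by -0.14 over all nuclei, -0.08 in excitatory-like and -0.04 in inhibitory-like nuclei. Levels are in CPM of total UMIs, as lowest, median and highest over 12 animals. In sums over nuclei, fewer expressing nuclei and less RNA per nucleus cannot be told apart.

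Over all nuclei 4627 of 18400 genes were called (25.1%), 1720 higher (9.35%) and 2907 lower (15.8%). Relative to total UMIs the split was 588 higher and 5979 lower. The class shares above had been called from the class lists, so the levels of these genes are not separate evidence. Of these lists, 7 of 7 oligodendrocyte genes were lower (median log2 fold change -3.03), 3 of 3 OPC genes (-1.56) and 6 of 7 astrocyte genes (-1.08). So were 7 of 7 microglia genes (-0.52) and 6 of 6 inhibitory genes (-0.78), against a median of -0.01 over all genes. Of 7 vascular and leptomeningeal genes 4 were lower and 1 higher, and of 7 excitatory genes 3 were higher (median 0.12, or -0.01 relative to total UMIs). Sox10, the lineage factor of oligodendrocytes, went from 2.47, 7.39 and 10.1 to 0.239, 0.743 and 1.04 CPM, with no overlap and a log2 fold change of -3.13 ± 0.12 (SE). Vip, the peptide of a class of interneurons, went from 10.5, 15.2 and 23.2 to 3.06, 4.25 and 7.96 CPM, with no overlap (-1.65). The striatal projection list, of genes known from projection neurons of the striatum, had 5 of 6 genes lower (median -0.79). Fat3, an atypical cadherin, had the smallest p of the higher genes, from 497, 578 and 656 to 687, 803 and 892 CPM, with no overlap (0.57). Of all genes tested, 537 (2.92%) had no overlap between the UMI ranges.

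Within excitatory-like nuclei fewer genes were called than over all nuclei. Of 13113 genes, 1137 were called (8.67%), 557 higher (4.25%) and 580 lower (4.42%), and 27 (0.206%) had no overlap. Relative to total UMIs the split was 315 higher and 1347 lower. With excitatory nuclei assigned by whole profile in place of markers the calls numbered 1877, with a class cut of 4 marker UMIs 298, and with DESeq2 577.

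The 10 higher genes with the smallest p were all longer than 100 kb, all higher in 12 of 12 animals, and all overlapping between the ranges. Cdh10, a classical cadherin, stood at 308, 355 and 486 CPM in standard and at 402, 462 and 600 CPM in transcript-rich nuclei, a log2 fold change of 0.41 ± 0.02 (adjusted p = 1.16e-25). Fat3 went from 518, 631 and 750 to 707, 831 and 916 CPM (0.44 ± 0.02, adjusted p = 1.86e-21).

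Nlgn1, a postsynaptic partner of neurexins, went from 4400, 4689 and 5192 to 5073, 5543 and 5911 CPM (0.28 ± 0.01, adjusted p = 4.19e-24), with 31% of its UMIs divided among several genes. Robo2, an axon guidance receptor, went from 739, 819 and 989 to 908, 976 and 1207 CPM (0.33 ± 0.02). Plcl1, a phospholipase-like signalling protein, went from 295, 379 and 449 to 411, 479 and 552 CPM (0.40). Each of these genes was higher within all 12 animals, and the ranges overlapped.

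The other higher genes were Nkain2, a sodium pump interactor (0.26), Lrfn5, a synaptic adhesion protein (0.29), Oxr1, an oxidation resistance gene (0.31), Rab3c, a synaptic vesicle GTPase (0.35), and Nebl, an actin-binding protein (0.32).

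The 10 lower genes included Garnl3, from the marker list of layer 6 corticothalamic (L6 CT) neurons, which project from the deepest cortical layer to the thalamus. Col5a1, a fibrillar collagen gene, had levels of 25.8, 56.7 and 72.9 CPM in standard and of 15.3, 28.8 and 39.9 CPM in transcript-rich nuclei (-0.94 ± 0.06, adjusted p = 1.1e-15). Along the bins it stood at 59.3, 56.7 and 51.7 CPM below the limit and at 37.8, 23.5 and 16.0 CPM above it. Syt6, a synaptotagmin, went from 15.4, 36.2 and 53.7 to 9.69, 19.6 and 30.2 CPM (-0.74 ± 0.06, adjusted p = 8.96e-16). Both were lower in 12 of 12 animals, and the ranges overlapped.

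Among the other lower genes were Rell1, a TNF receptor family relative (-0.70), Nptx1, a secreted pentraxin at excitatory synapses (-0.41), Sparcl1, a matricellular synaptic protein (-0.39), Ephb1, an ephrin receptor (-0.35), and Grik3, a kainate receptor subunit (-0.26). Gse1 (-0.48) and the noncoding Snhg4 (-0.41) were lower too, with 52% and 61% of their UMIs divided among several genes, so their levels are uncertain. All 10 genes were lower in 12 of 12 animals, and Snhg4 had no overlap.

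The L6 CT marker list as a whole was lower. Of its 6 genes 5 were tested and all 5 were called lower, with a median log2 fold change of -0.29 against -0.01 over all genes. Foxp2, a transcription factor of deep layer neurons, stood at 136, 241 and 314 CPM in standard and at 89.5, 141 and 193 CPM in transcript-rich nuclei (-0.71 ± 0.06, adjusted p = 1.96e-06). Tle4, a corepressor, had a log2 fold change of -0.31, Hs3st4, a heparan sulfate sulfotransferase, one of -0.29, and Garnl3, a GTPase-activating protein, one of -0.26.

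The share of L6 CT-like nuclei among excitatory-like nuclei (at least 3 UMIs of that list after thinning, and more than of any other layer list) was described and not tested, because it uses the same genes. It was 24.7%, 32.2% and 35.5% in standard and 21.2%, 25.7% and 30.2% in transcript-rich nuclei, lower in 12 of 12 animals. Along the bins it stood at 31.8%, 32.8% and 31.2% below the limit and at 27.8%, 24.9% and 21.4% above it.

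Other layer lists held at most 2 called genes each, beside 4.25% higher and 4.42% lower over all tested genes. In the L2/3 IT list 1 of 4 was higher, the GTPase regulator Stard8 (0.51). In the L4/5 IT list 1 of 3 was higher, the adhesion gene Il1rapl2 (0.52), and in the L5 IT list 1 of 3, the transcription factor Etv1 (0.35). In the L5 ET list the natriuretic peptide receptor Npr3 was higher (0.29) and the transcription factor Bcl11b lower (-0.23), out of 5. In the L5 NP list 1 of 3 was lower, the transcription factor Tshz2 (-0.59), and in the L6b list 1 of 2 was higher, the matricellular gene Ccn2 (0.57), a list in which DESeq2 called 0. The L6 IT and CA1 lists each had 0 of 2 genes called by edgeR or DESeq2, with 1 and 2 at an unadjusted p under 0.05, and no dentate gyrus gene was tested. Relative to total UMIs Etv1 was not called and the L4/5 IT list had 1 gene lower.

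For the lists of excitability and synapses the share over all tested genes is again 4.25% higher and 4.42% lower. Of 17 potassium channel genes 4 were higher and 0 lower, Kcnq5 (0.23), Kcnb2 (0.27) and Kcnt2 (0.32) among them, or 3 higher and 1 lower relative to total UMIs. Of 11 GABA-A receptor genes 2 were higher, with Gabra5 at 0.31 (1 relative to total UMIs), and of 16 synaptic adhesion genes 2, Nlgn1 and the teneurin Tenm1 (0.20). Of 13 ionotropic glutamate receptor genes 2 were higher, with Gria4 at 0.22, and 1 lower, Grik3, against 0 and 1 relative to total UMIs. Of 12 calcium channel genes 1 was higher, Cacna2d3 (0.24), which was not called relative to total UMIs. Of 12 active zone genes 0 were higher and 1 was lower.

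In the other functional groups at most 2 genes a list were called relative to TMM scaling. Of 6 neurofilament and axonal genes 1 was lower, Ina (-0.28), and of 11 immediate early genes 2, Egr1 (-0.32) and Npas4 (-0.39), both induced by neuronal activity. Of 6 heat shock and stress genes 1 was lower, Ddit3 (-0.51), against 4 lower relative to total UMIs, where their median was -0.24 beside -0.08 over all genes. Of 10 nuclear long noncoding RNAs 1 was higher, Rian (0.20), and 1 lower, against 0 and 1 relative to total UMIs. By edgeR or DESeq2, 0 of 52 ribosomal protein, 0 of 79 respiratory chain, 0 of 16 transcription and splicing and 0 of 7 protein-coding mt- genes were called. At an unadjusted edgeR p under 0.05 these numbers were 7, 7, 7 and 1, and relative to total UMIs 5, 3, 1 and 0 were called lower. Of the mitochondrial ribosomal RNAs, outside these lists, mt-Rnr2 was lower, from 44.6, 69.5 and 121 to 39.4, 54.1 and 97.3 CPM (-0.24 ± 0.04, edgeR adjusted p = 6.63e-06), and so was mt-Rnr1 (-0.26 ± 0.07, adjusted p = 0.00186), which DESeq2 did not call. Each was lower in 12 of 12 animals with overlap, and neither was called with a class cut of 4 UMIs or with no replicate block. With every nucleus thinned to 1500 UMIs, mt-Rnr1 was not called either (edgeR adjusted p = 0.459), while mt-Rnr2 had adjusted p = 0.00336.

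The genes that define the class could not be read in the same way. Of the 7 excitatory class genes 5 were lower, and they had been used to choose these nuclei. Slc17a7 stood at 129, 166 and 205 CPM in standard and at 96.4, 118 and 145 CPM in transcript-rich nuclei (-0.41). Gad2, at 2.54 and 3.53 CPM (medians), was higher by 0.48 ± 0.17 (adjusted p = 0.0357), was not called by DESeq2, and was lower by whole profile at -0.65.

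All listed markers of other cells were detected in excitatory-like nuclei of both ranges, at low summed levels. The class rule itself left out nuclei with many UMIs of these lists. Low levels therefore follow from the rule and do not measure how pure the class is. The inhibitory list of 6 genes had a median of 6.96 CPM (5.16 to 16.5) in standard and 9.03 CPM (4.75 to 20.1) in transcript-rich nuclei. The oligodendrocyte list of 7 genes had 23.0 CPM (15.1 to 35.8) and 23.1 CPM (15.6 to 34.3). The astrocyte list had 45.6 CPM (34.2 to 56.7) and 57.7 CPM (42.9 to 78.6), and the microglia list 25.3 CPM (20.4 to 35.1) and 27.8 CPM (22.6 to 41.5). Their part in the gene calls was not tested. Myt1l stood at 872, 1044 and 1159 CPM in standard and 837, 1020 and 1088 CPM in transcript-rich nuclei (0.02 ± 0.02, adjusted p = 0.495).

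The genes named in inhibitory-like nuclei reached larger fold changes than those named in excitatory-like nuclei. Transcript-rich inhibitory-like nuclei numbered 1212, against 9242 excitatory-like ones, so these sizes are not compared on equal terms. Of 8102 genes, 961 were called (11.9%), 489 higher (6.04%) and 472 lower (5.83%), and 6 (0.0741%) had no overlap. Relative to total UMIs the split was 314 higher and 680 lower. By whole profile 1956 genes were called, with a class cut of 4 marker UMIs 160, and with DESeq2 576.

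Pclo, the active zone scaffold piccolo, went from 599, 745 and 847 CPM in standard to 862, 1021 and 1382 CPM in transcript-rich nuclei, with no overlap (0.54 ± 0.05, adjusted p = 5.55e-08). Pitpnc1, a phosphatidylinositol transfer protein, went from 174, 225 and 270 to 276, 328 and 384 CPM, with no overlap (0.61). Col19a1, a collagen expressed by interneurons, went from 379, 484 and 625 to 564, 862 and 1169 CPM (0.80 ± 0.08, adjusted p = 6.71e-07). All were higher in 12 of 12 animals.

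The other 7 were Grip1, a glutamate receptor interacting scaffold (0.53), Mmp16, a membrane metalloproteinase (0.45), Enox1, an oxidoreductase (0.51, no overlap), Npas3, a transcription factor of interneurons (0.53), Adamts6, an extracellular protease (0.61), Cntnap4, a contactin-associated protein of interneurons (0.49), and St8sia4, a polysialyltransferase (0.57).

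Some of the lower genes reached fold changes further from 0. Sema5b, a semaphorin, stood at 35.3, 46.4 and 88.0 CPM in standard and at 0, 15.4 and 21.6 CPM in transcript-rich nuclei, with no overlap (-1.78 ± 0.14, adjusted p = 5.38e-10). Its bins held 58.8, 59.7 and 44.4 CPM below the limit and 13.8, 11.5 and 17.8 CPM above it. Grm8, a presynaptic metabotropic glutamate receptor, went from 358, 517 and 898 to 189, 259 and 380 CPM (-0.97 ± 0.08, adjusted p = 8.62e-08).

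The other 8 were Adamts19, an extracellular protease (-2.02), Plpp4, a lipid phosphatase (-1.34), Slco5a1, a member of the organic anion transporter family (-1.22), Peli2, a ubiquitin ligase (-0.98), Svil, an actin-bundling protein (-0.98), Pde4b, a cAMP phosphodiesterase (-0.70), Chd3, a chromatin remodeller (-0.61), and Foxp1, a transcription factor (-0.43, with 40% of its UMIs divided among genes). All 10 lower genes were lower in 12 of 12 animals except Peli2, lower in 11.

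The interneuron subclass lists differed in direction, beside 6.04% higher and 5.83% lower over all tested genes. In the Pvalb list, of fast-spiking interneurons, 2 of 2 tested genes were higher, Btbd11 (0.49) and Tmem132c (0.62). In the Sst list 1 of 3 was higher, the binding protein Crhbp (1.01 ± 0.19, adjusted p = 0.00141), and in the Sncg list the cannabinoid receptor Cnr1 (0.70), the sole gene tested. Vip, the sole gene tested of its list, went from 66.6, 101 and 146 CPM in standard to 22.8, 44.9 and 87.7 CPM in transcript-rich nuclei (-1.07 ± 0.13, adjusted p = 2.15e-05), lower in 12 of 12. In the Lamp5 list 1 of 3 was lower, Lamp5 (-0.51), where DESeq2 called 0. In the striatal projection list 2 of 3 were lower, the signalling regulator Rgs9 (-0.92) and the dopamine receptor Drd2 (-1.03). The neuroblast list had 0 of 2 called by edgeR or DESeq2, with 1 at an unadjusted p under 0.05. Of the cortical layer lists, L2/3 IT had 1 of 3 higher, Rasgrf2 (0.29), and 1 lower, Otof (-0.96), L4/5 IT had 1 of 3 higher, Whrn (0.55), where DESeq2 called 0, and L6 CT had 1 of 5 higher (0 relative to total UMIs) and 2 lower, with Foxp2 at -1.54 ± 0.28, and Prox1, a dentate gyrus and interneuron factor, was lower (-0.50).

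Channel and receptor genes went both ways in inhibitory-like nuclei. Over all tested genes 6.04% were higher and 5.83% lower. Of 17 potassium channel genes 6 were higher and 4 lower, such as Kcnq3 (0.31), Kcnj3 (0.30) and Kcnc1 (0.29), a channel of fast-spiking cells, against Kcnt2 (-0.60). Of 11 calcium channel genes 2 were higher, Cacna2d2 (0.46) and Cacna1b (0.28), and 4 lower, Cacna2d1 (-0.50) and Cacna1e (-0.51) among them. Of 13 glutamate receptor genes 3 were higher, with Gria3 at 0.31, and 2 lower, or 1 and 3 relative to total UMIs. Of 7 sodium channel genes 1 was higher, Scn1a (0.23), and 1 lower, Scn3a (-0.30), against 0 and 1 relative to total UMIs. Of 16 synaptic adhesion genes 3 were higher, with Lrrtm4 at 0.30, and 1 lower, Nrxn2 (-0.29), against 2 and 2 relative to total UMIs.

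Of 12 active zone genes 2 were higher, Pclo and Erc1 (0.23), or 1 relative to total UMIs. Of 9 long noncoding RNAs 3 were higher, with Kcnq1ot1 at 0.26, or 1 relative to total UMIs, of 3 axonal genes 1, Map1b (0.25), and of 36 respiratory chain genes 1, Ndufaf2 (0.40), where DESeq2 called 0. Of 16 transcription and splicing genes 2 were lower, Ddx5 (-0.24) and Son (-0.23). Of the Myt1 family both tested genes were lower, Myt1l from 684, 881 and 1068 to 595, 762 and 879 CPM (-0.20 ± 0.04, adjusted p = 0.00171) and Myt1 (-0.51), the second of which DESeq2 did not call. By edgeR or DESeq2, 0 of 6 ribosomal protein, 0 of 5 stress, 0 of 3 immediate early and 0 of 3 protein-coding mt- genes were called, with 0, 1, 0 and 0 at an unadjusted edgeR p under 0.05. Outside these lists mt-Rnr2 was lower, from 76.2, 145 and 197 to 44.8, 109 and 160 CPM (-0.42 ± 0.07, edgeR adjusted p = 0.000197), lower in 11 of 12 animals with overlap, and not called with a class cut of 4 UMIs or with no replicate block. The value of mt-Rnr1 was -0.31 ± 0.11 (adjusted p = 0.0669).

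The summed excitatory list of 7 genes, all detected, had a median of 31.7 CPM (24.5 to 72.2) in standard inhibitory-like and 40.4 CPM (28.2 to 59.9) in transcript-rich inhibitory-like nuclei, the oligodendrocyte list had 29.5 CPM (17.6 to 59.9) and 26.9 CPM (11.4 to 47.6), and the endothelial gene Cldn5 was at 0 in the transcript-rich ones. The class rule limited these lists here too, so their low levels follow from it. The part of these genes in the calls was not tested.

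**Figure D4:**
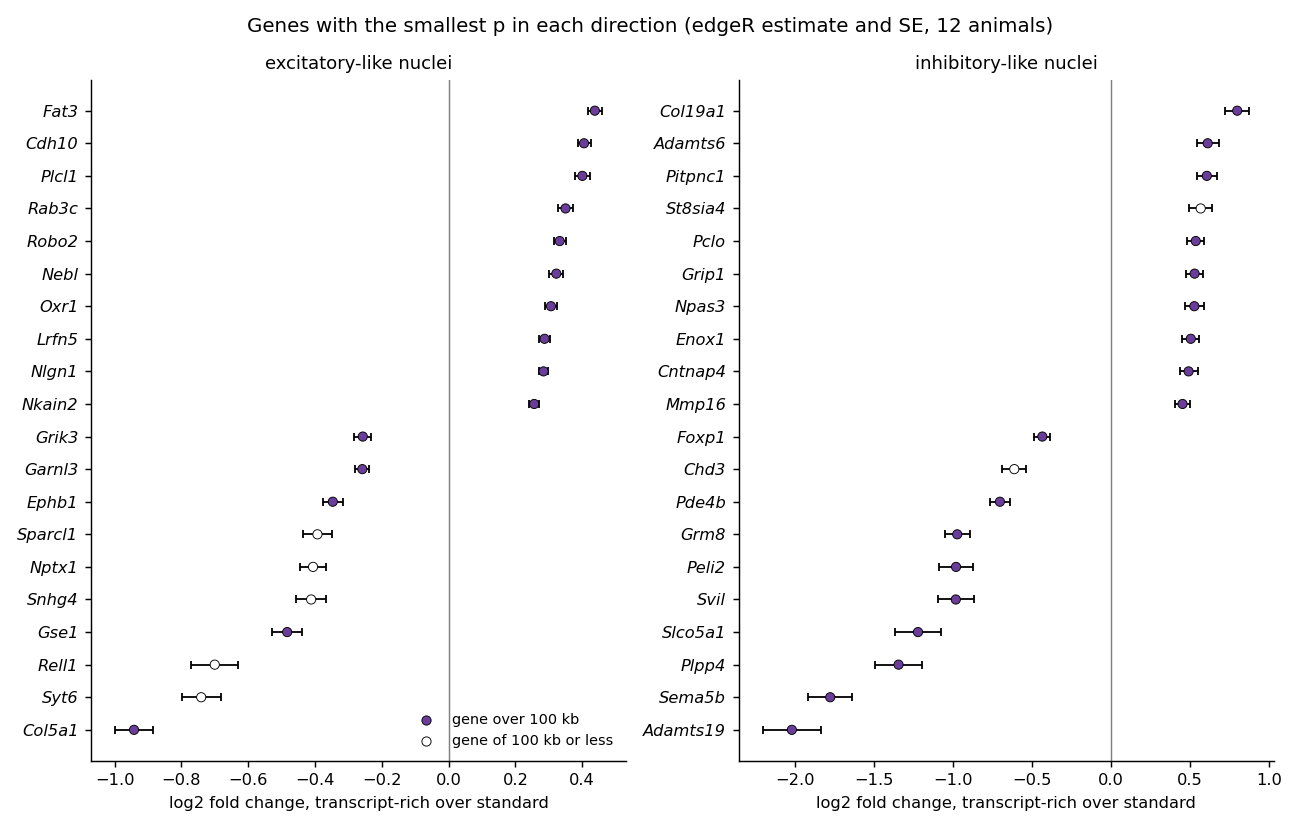
Log2 fold change of transcript-rich over standard nuclei (x axis) with its standard error for the 10 genes of smallest p in each direction (y axis), in excitatory-like and inhibitory-like nuclei (edgeR, 12 animals). Higher genes lie between 0.26 and 0.44 in excitatory-like nuclei and between 0.45 and 0.80 in inhibitory-like nuclei, and lower genes reach -0.94 and -2.02.

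Long genes made up much of the higher calls, and in inhibitory-like nuclei also of the lower calls. In excitatory-like nuclei 19.2% of tested genes, 49.4% of higher genes and 13.3% of lower genes were longer than 100 kb, with median lengths of 29.5, 94.5 and 24.4 kb. In inhibitory-like nuclei these shares were 25.6%, 58.5% and 42.6%, with medians of 45.2, 119 and 78.1 kb. The median log2 fold change in excitatory-like nuclei was 0.05 for genes over 100 kb and -0.02 for shorter ones. For inhibitory-like nuclei these medians were 0.023 and -0.0008. Gene models named only by a clone or RIKEN number were 18.6% of tested, 35.5% of higher and 22.2% of lower genes in excitatory-like nuclei.

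The 2 neuron classes shared part of their calls, out of 8024 genes tested in both, of which 5.96% were higher and 5.73% lower in inhibitory-like nuclei. The 71 genes higher in both were 19.0% of the 374 higher in excitatory-like and 14.9% of the 478 higher in inhibitory-like nuclei. Elavl2, a neuronal RNA-binding protein (0.27 and 0.64), Oxr1 (0.31 and 0.56) and Agbl4, a tubulin-modifying carboxypeptidase (0.29 and 0.45), were such genes. The 48 genes lower in both were 15% of 321 and 10.4% of 460. In opposite directions were 26 genes higher in excitatory-like and lower in inhibitory-like nuclei (6.95% of the 374) and 13 genes the other way round (4.05% of the 321).

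The share of transcript-rich nuclei, without those above 12000 UMIs, was compared between genotypes. It was 27.9%, 36.1% and 38.2% (lowest, median, highest) in WT and 23.8%, 34.3% and 39.2% in Het animals. The means were 34.3% ± 4.17 and 33.4% ± 5.22 (SD, n = 6 and 6), a difference of -0.876 points that was smaller than the spread between animals (exact two-sided permutation test, p = 0.764). Without Het male 2 the difference was 1.05 points. The step in the excitatory-like share across the limit was 6.21 points in WT and 8.11 points in Het animals (exact p = 0.0866, adjusted p = 0.863 over 17 such tests), and that of the inhibitory-like share -3.74 and -4.60 points (exact p = 0.353).

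Het and WT animals were then compared within transcript-rich nuclei by edgeR over 6 and 6 animals. Myt1l, the targeted gene, stood at 837, 910 and 1049 CPM in WT and 962, 1039 and 1088 CPM in Het transcript-rich excitatory-like nuclei (0.12 ± 0.06, adjusted p = 0.628), and at 0.10 ± 0.06 (adjusted p = 0.701) in standard ones. It was not lower in Het nuclei of either range. UMIs counted over the whole gene do not separate the alleles of a frameshift, so this level does not check the labels.

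In transcript-rich excitatory-like nuclei 14 of 14036 genes were called between genotypes (0.0997%), 13 higher (0.0926%) and 1 lower (0.00712%), and in standard ones 39 of 12519 (0.312%), 35 higher and 4 lower (0.032%), with 0.879% not overlapping. Kcnip3, a calcium-binding potassium channel interactor, stood at 123, 133 and 154 CPM in WT and at 167, 184 and 190 CPM in Het transcript-rich nuclei, with no overlap (0.40 ± 0.06, adjusted p = 0.0101), where 0.663% of tested genes had no overlap. Sdk2, an immunoglobulin adhesion molecule, stood at 105, 120 and 134 CPM in WT and 151, 158 and 171 CPM in Het, with no overlap (0.39 ± 0.06, adjusted p = 0.0107). Kcnt2, a sodium-activated potassium channel, was the sole lower gene, at 632, 671 and 811 CPM in WT and 515, 559 and 573 CPM in Het (-0.35 ± 0.06, adjusted p = 0.0177).

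Spock2, a proteoglycan (0.32), Nuak1, a kinase of axon branching (0.42), and Ankrd33b, an ankyrin repeat protein (0.40), followed, each with adjusted p = 0.0177 and no overlap between the genotypes. The number of calls depended on single animals, from 2 without Het female 1 to 24 without WT male 2. It was also 3 without WT female 3 or Het female 2, 4 without WT male 3 or Het male 2, 5 without Het male 3 and 8 without Het female 3. Kcnt2 was not called without WT female 3, Het male 2, Het female 1 or Het female 2. The 2 calls without Het female 1 were both higher, so most of the higher genes named here also lost their call in that run. DESeq2 called 74 genes.

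A list of 10 genes had been named from earlier results of these data in L6 CT nuclei, so it is not independent evidence. In transcript-rich excitatory-like nuclei 3 of them were called, Kcnip3, Sdk2 and Kcnt2. Not called were Syt6 (0.52 ± 0.20, adjusted p = 0.524), Nptx1 (0.44, adjusted p = 0.131), Atp2b4, a calcium pump (0.28, adjusted p = 0.202), Gabrb2, a GABA-A receptor subunit (-0.18, adjusted p = 0.238), Oxr1 (-0.16, adjusted p = 0.29), Olfm3, a secreted olfactomedin (-0.15), and Il1rap, a receptor accessory protein (-0.13). In standard excitatory-like nuclei Sdk2 (0.46), Syt6 (0.73), Nptx1 (0.50), Kcnip3 (0.43) and Gabrb2 (-0.26) were called. Both ranges come from the same 12 animals, so their values are not separate evidence.

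In transcript-rich L6 CT-like nuclei 5 of 9448 genes were called (0.0529%), 4 higher (0.0423%) and 1 lower (0.0106%), and in standard ones 11 of 8640 (0.127%), 10 higher and 1 lower (0.0116%). Kcnip3 stood at 138, 166 and 191 CPM in WT and at 219, 260 and 311 CPM in Het transcript-rich nuclei, with no overlap (0.63 ± 0.08, adjusted p = 0.000246). The other higher genes were Sema5b (0.57), Hs3st2, a heparan sulfate sulfotransferase (0.44), and Ssbp3, a cofactor of LIM-domain transcription factors (0.45). Cdh20, a cadherin, was lower (-1.07 ± 0.18, adjusted p = 0.0136). Leaving out 1 animal gave 3 to 30 calls, with 30 without WT male 2, 16 without WT female 1 and 9 without WT male 1. There were 3 calls without WT male 3, Het male 1 or Het male 2, none of them lower, so Cdh20 was not called there.

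A difference of the genotype effect between the UMI ranges was tested as an interaction in excitatory-like nuclei. Of 13966 genes 1 was called (0.00716%), and 687 had an unadjusted p under 0.05, while DESeq2 called 0. It was Tafa1, a secreted chemokine-like protein (interaction 0.21 ± 0.03, adjusted p = 0.00177), whose Het over WT log2 fold change was -0.21 ± 0.10 in transcript-rich and -0.44 ± 0.12 in standard nuclei, neither of them called. This call was absent in 5 of the 12 runs that left out 1 animal, those without WT male 1, WT male 3, Het male 1, Het male 3 or Het female 2, in which the interaction fell to between 0.18 and 0.20, under the fold threshold, with adjusted p from 0.0135 to 0.0353 (edgeR). For the 10 listed genes the interaction had adjusted p of at least 0.996, which does not show that their genotype effects were alike.

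**Figure D5:**
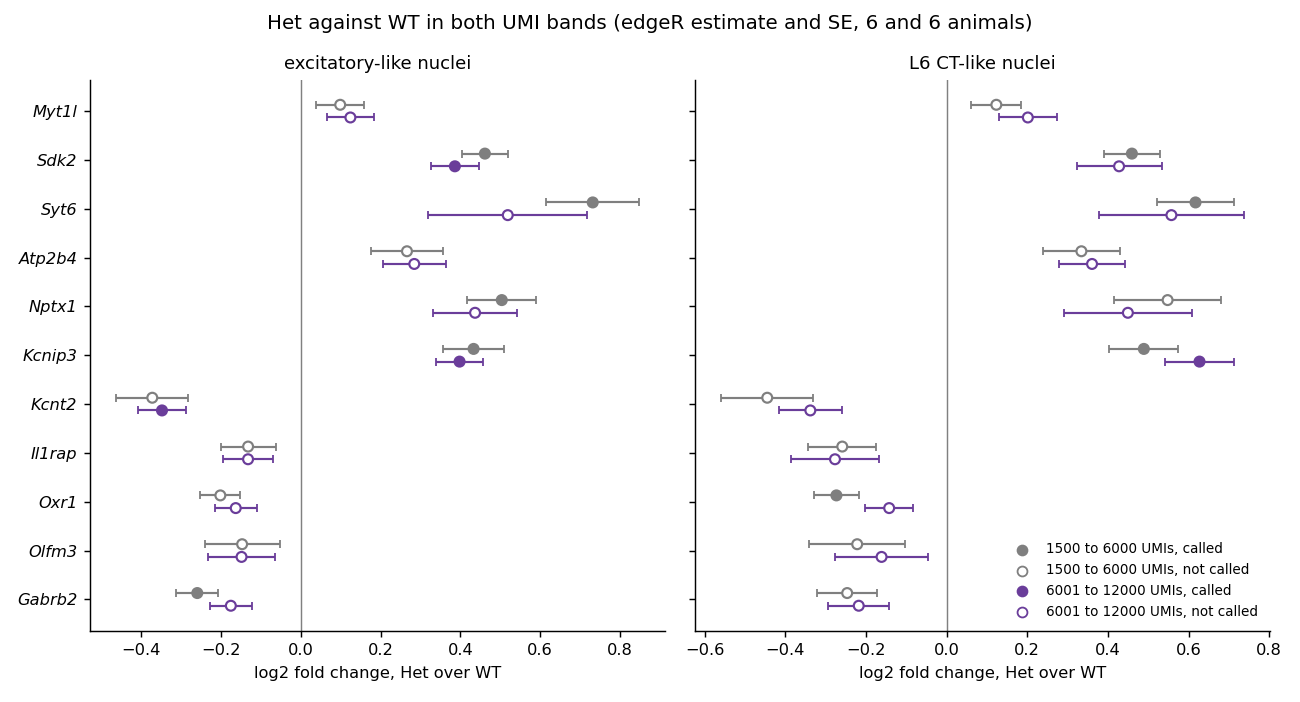
Log2 fold change of Het over WT (x axis) with its standard error for Myt1l and the 10 listed genes (y axis), in transcript-rich and standard nuclei, for excitatory-like and L6 CT-like nuclei (edgeR, 6 and 6 animals; filled points are called). Kcnip3 and Sdk2 lie to the right of 0 and Kcnt2 to the left in both UMI ranges, and Myt1l lies at 0.12 and 0.10 in excitatory-like nuclei.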

How the data were processed

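Cortical nuclei of 12 mice at P21 were profiled with a combinatorial barcoding kit. The deposited values are expected counts: the authors used ScaleRna (genome mm10) and CellFinder and left the UMIs unnormalized, with a UMI of several candidate genes split between these. The annotation release is not given in the sources used here, and gene lengths came from GENCODE M21 (GRCm38). Per the labels, the submitters' processing notes also name Seurat 4.3.0 and DESeq2 1.38.3. Whether doublets were removed before deposit is not known, and the paper's text gives more nuclei at this age than the files hold barcodes.

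The nuclei and gene lists were chosen with earlier results of these data known. Nuclei were thinned to 1500 UMIs for classes, gene numbers and doublet signs. Counts were summed per animal and UMI range (and class) and rounded to whole numbers. They were then tested with edgeR 4.0.16 (TMM, filterByExpr, robust), with the animal as a block between UMI ranges. Single values were tested by exact sign flips (4096) within animals or exact relabelling (924) between genotypes. DESeq2 1.42.0 was an alternative, and Scrublet ran in scanpy 1.11.5. TDTOMATO was kept out of library sizes. P-values measure the spread between these animals. Further alternatives were other scalings, filters, thinning depths and seeds, limits, class rules, a sex term and leaving out each animal.

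Named genes were, per comparison of UMI ranges, the 10 called genes of smallest p in each direction other than clone or RIKEN names and, within a class, class markers, plus list members described by the smallest p. For genotype they were Myt1l, 10 genes named earlier and the 5 called genes of smallest p in each direction. Elavl2, and mt-Rnr1 and mt-Rnr2 within neuron classes, were named after their values were seen. The tests were first tested on simulated data. A few members of the marker and channel lists are not reported here.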

Additional observations from a re-analysis of the deposited data

Results flagged for a closer look

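Of 94 groups of 6 animals, 5 held a value far from the others by Dixon's criterion, where chance gives about 1 in 20. Among WT animals, the change across the UMI limit in the share of nuclei with at least 1 UMI each of Slc17a7 and Gad1 or Gad2 was -0.810 points in WT male 1, against -0.214 to 0.00695 in the other WT animals (gap over range 0.729). WT male 1 also had the lowest change of the mt- UMI share in excitatory-like nuclei among WT animals, -0.00294 points (gap over range 0.638). In transcript-rich nuclei Oxr1 stood at 2114 CPM in WT female 3, against 1729 to 1827 in the other WT animals, in excitatory-like nuclei (0.744), and at 2237 against 2013 to 2090 CPM in L6 CT-like nuclei (0.655). Il1rap stood at 148 CPM in Het male 2, against 172 to 182 in the other Het animals, in transcript-rich excitatory-like nuclei (0.707).

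The genotype effect on Tafa1 was called as different between UMI ranges (interaction 0.208, edgeR adjusted p = 0.00177). The call was absent in 5 of the runs that left out 1 animal, and DESeq2 called 0 genes. In excitatory-like nuclei the share of UMIs in the listed nuclear long noncoding RNAs changed across the limit by -0.0230 points in males. In females this change was -0.100 points (difference 0.0774, exact permutation test, adjusted p = 0.0368 over 17 tests).

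Outside the compared UMI ranges, 275 of the 6808 nuclei above 12000 UMIs (4.04%) met the unthinned doublet sign of 2 UMIs of each gene, where a count of 0 allows up to 0.0441%.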

How the results depend on the processing

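Between UMI ranges, all 3 counts of called genes depended on the settings. Over all nuclei 4627 became 2924 with standard nuclei from 3000 UMIs. In excitatory-like nuclei 1137 became 577 with DESeq2, 485 with no replicate block, 572 after thinning, 527 with an upper limit of 9000, 298 with 4 marker UMIs and 1877 by whole profile. In inhibitory-like nuclei 961 became 576 with DESeq2, 406 after thinning, 593 after a count split, 577 with an upper limit of 9000, 564 with standard nuclei from 3000, 160 with 4 marker UMIs and 1956 by whole profile. Leaving out each animal gave 4388 to 4724, 1039 to 1144 and 785 to 1006 calls. Between genotypes, transcript-rich excitatory-like nuclei gave 74 calls with DESeq2 and 163 with no filter, and 2 to 24 without 1 animal. Standard ones gave 74 with DESeq2, 149 with no filter, 80 by whole profile, and 16 (without WT female 3) to 69 (without WT female 1). Transcript-rich L6 CT-like nuclei gave 13 with DESeq2, 47 with no filter, 8 with a sex term, and 3 to 30 without 1 animal. Standard L6 CT-like nuclei gave 44 with DESeq2, 65 with no filter, and 4 (without WT female 3) to 38 (without WT female 1). The interaction gave 0 with DESeq2, 2 with no filter, and 0 to 3 without 1 animal.

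Same-numbered WT and Het animals share only a number (correlations of their deviations from -0.104 to 0.106, with 3 to 5 of 12 animals closest to their own number). With the number as replicate block the genotype calls were 11 and 29 in transcript-rich and standard excitatory-like nuclei and 17 and 16 in L6 CT-like nuclei. With no replicate block, 3748 genes were called over all nuclei and 669 in inhibitory-like nuclei.

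Runs without 1 animal were made for the class shares, gene numbers and UMI shares named next, which kept their direction and call, and not for the single glial classes, the whole-profile shares or inhibitory-like gene numbers. The difference was 6.88 to 7.45 points for excitatory-like, -4.38 to -3.88 for inhibitory-like and -6.21 to -5.54 for non-neuronal-like nuclei. It was -15.6 to -14.8 genes over all nuclei, -14.2 to -13.1 in excitatory-like nuclei, and 2.52 to 2.63 and 1.61 to 1.71 points for genes over 100 kb. In the same runs the Scrublet share, which carries no test, differed by 2.54 to 2.78 points. The doublet sign with 2 UMIs differed by 0 in each run, so it had no direction or call to keep. That sign became callable at 1 UMI each (-0.139, or -0.162 to -0.0782 without 1 animal). The call at 1 UMI each was lost with another random thinning (-0.0575, exact permutation test, p = 0.209). It was also lost at 3000 UMIs, without the standard nuclei below that depth, where the difference was positive (0.0403, exact p = 0.646). Reversed among the other results was the genotype difference in the transcript-rich share (-2.16 to 1.05 over animals left out, 1.05 without Het male 2). So were Rps25 over all nuclei after thinning (0.00151) and Gad2 in excitatory-like nuclei by whole profile (-0.65). The causes were not tested. Of the values of named genes, 2638 of 2735 over all nuclei, 1177 of 1311 in excitatory-like and 1552 of 1721 in inhibitory-like nuclei kept direction and call. At 1500 UMIs the doublet sign with 2 UMIs of each gene was met by 0 nuclei of either range, so it was not detectable at this depth.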

Other observations

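The reporter transcript TDTOMATO of the injected virus was left out of all comparisons. At least 1 UMI of it was seen in 33.2% to 59.2% of an animal's standard nuclei, in 52.2% to 78.4% of its transcript-rich nuclei and in 68.0% to 90.8% of its nuclei above 12000 UMIs. In CPM it stood at 171 to 416 in standard, 171 to 361 in transcript-rich and 164 to 330 in nuclei above 12000 UMIs.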
